A study of Mus musculus with 10 samples.

Results

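Keratins are the intermediate filament proteins of epithelial cells, and keratin-associated proteins embed the keratin filaments of the hair shaft. The family was taken as every gene on the array whose single annotated symbol is Krt or Krtap followed by a digit, which gave 66 genes, 40 keratins and 26 keratin-associated proteins, of 12394 genes in all. They were compared in 4 cell populations, each sorted from mammary tissue of the mouse strain FVB/N and profiled on single-colour arrays, 10 in all. The cells labelled CSC (cancer stem cells, 2 arrays), TEC (tumour cells, 2 arrays) and CAF (cancer-associated fibroblasts, 3 arrays) came from mammary tumours of mice with the genotype label WAPCre-DNbcatn;HGF. The control fibroblasts, COF (3 arrays), came from control glands of mice labelled WT. In the tumour genotype, which CSC, TEC and CAF share and COF lack, the Cre is driven by the promoter of Wap, a milk protein gene active in secretory mammary epithelium, beside alleles of beta-catenin and of HGF, the ligand of the Met receptor. A second label field of the TEC samples reads TEFs. The sort gates, the ages and whether arrays stand for separate mice are not stated in the labels, so p-values measure only the spread between these samples, which may be technical. In bulk samples, fewer cells of a type and less RNA per cell cannot be told apart.

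Keratins work in pairs. A type I and a type II chain wind around each other, and the filament grows from such pairs, so cells make defined partners together. In the mammary gland, luminal cells carry Krt8 with Krt18 and Krt19, and basal cells carry Krt5 with Krt14. Krt6a, Krt6b, Krt16 and Krt17 are induced in stressed and proliferating stratified epithelium, Krt10 and Krt1 mark cells that have left the basal layer of skin, and the inner root sheath of the hair follicle carries type I chains such as Krt25 and Krt27 with type II chains such as Krt71 and Krt72. The genes were therefore split into 5 luminal, 7 basal, 11 other epithelial and 43 hair genes, the last made up of 17 keratins and all 26 keratin-associated proteins. Of the 40 keratin genes, 19 lie on mouse chromosome 11 and 21 on chromosome 15, and 16 of the keratin-associated genes lie on chromosome 16.

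The sequences before the gene starts of 6 members, chosen because the differences between tumour populations turn on them, are shown first. Each line gives the 120 bases before the start of the gene, from RefSeq on build GRCm38.p6, on the strand of the gene. Capitals mark TATAAA, the letters of the TATA box.
Krt25 (chr11:99322952-99323071, minus strand): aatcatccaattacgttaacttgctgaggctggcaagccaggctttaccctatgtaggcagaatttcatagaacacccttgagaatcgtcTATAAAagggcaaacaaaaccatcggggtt
Krt27 (chr11:99351119-99351238, minus strand): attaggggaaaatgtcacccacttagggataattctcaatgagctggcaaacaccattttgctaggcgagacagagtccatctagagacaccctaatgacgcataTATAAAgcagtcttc
Krtap8-1 (chr16:89487953-89488072, minus strand): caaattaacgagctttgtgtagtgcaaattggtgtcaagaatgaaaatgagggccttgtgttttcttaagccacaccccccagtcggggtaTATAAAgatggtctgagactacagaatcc
Krt5 (chr15:101712906-101713025, minus strand): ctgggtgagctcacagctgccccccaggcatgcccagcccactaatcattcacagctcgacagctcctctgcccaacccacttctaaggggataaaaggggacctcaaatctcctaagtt
Krt8 (chr15:102004343-102004462, minus strand): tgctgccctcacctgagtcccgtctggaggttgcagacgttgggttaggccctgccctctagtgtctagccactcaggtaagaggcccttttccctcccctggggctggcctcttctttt
Krt18 (chr15:102028096-102028215, plus strand): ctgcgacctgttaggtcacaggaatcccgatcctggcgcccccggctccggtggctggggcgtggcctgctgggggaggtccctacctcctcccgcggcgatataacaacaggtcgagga

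The first 3 genes, which were highest in TEC, hold the letters TATAAA, which begin 30 bases before the start in Krt25, 15 in Krt27 and 29 in Krtap8-1. The stretches of Krt5, Krt8 and Krt18, which were highest in CSC, do not hold these letters. Promoters were given for 50 of the 66 members. In the 250 bases before the start, searched on the strand of the gene, 25 of 37 hair genes (67.6%) held TATAAA. It was in 2 of 7 other epithelial, 1 of 4 luminal and 0 of 2 basal genes, and in 8.12% of 27025 promoters in all. This motif was added after the first results were seen, and the 6 genes were chosen by their differences. The division among these 6 is therefore no test. Krt20, Krtap5-1 and Krtap28-13, which had their highest means in COF, also held TATAAA. Whether these letters went with the difference between CSC and TEC was not tested.

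A second set of letters was shared by hair genes. The core bound by LEF1 and TCF, the DNA-binding partners of beta-catenin, was searched as CTTTGAA and CTTTGAT on both strands of the same 250 bases. It was present in 11 of the 37 hair genes (29.7%), 1 of 7 other epithelial genes, 0 of 4 luminal and 0 of 2 basal genes, against 7.67% of all promoters. Of these 11 hair genes, 6 were lower in CSC than in TEC and 5 did not pass, against 10 lower and 16 not passing of the 26 hair genes without the core, and 20.1% lower of all genes. In 7 genes, a group formed after the sequences were seen, CTTTGAA lay in the same 30 bases. The lines give the bases from 250 to 221 before the start, on build GRCm38.p6 and the strand of the gene, with CTTTGAA in capitals.
Krt31 (chr11:100050772-100050801, minus strand): tgacttCTTTGAAgggctactgcagaactc
Krt32 (chr11:100088490-100088519, minus strand): gccCTTTGAAgatgtgtcttgatgctctcc
Krt33b (chr11:100030089-100030118, minus strand): ttaCTTTGAAgccaaaccatgaagctcttt
Krt34 (chr11:100041775-100041804, minus strand): aatctgcctcCTTTGAAggcatctaatgaa
Krtap1-5 (chr11:99581237-99581266, minus strand): acagtaagaagactCTTTGAAcatggaaac
Krtap16-3 (chr16:88963094-88963123, minus strand): tggcCTTTGAAgagggtgaaatcgtttttc
Krtap19-3 (chr16:88878259-88878288, minus strand): attatccaaCTTTGAAgtctttgttatttt

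Of these 7 genes, the 5 on chromosome 11 were lower in CSC than in TEC (differences of -0.48 to -1.33 on the log2 scale), and Krtap16-3 (0.05) and Krtap19-3 (-0.26) on chromosome 16 did not pass. TEC replicate 2 lay above TEC replicate 1 for each of the 5. The values were 7.18 against 6.05 for Krt31, 7.64 against 6.73 for Krt32 and 5.69 against 4.63 for Krt34. The differences without TEC replicate 2 were not followed for these genes. Krt33b and Krt34 had their highest means in COF, 6.73 and 5.78, against 6.72 and 5.16 in TEC. Krtap1-5, Krtap16-3 and Krtap19-3 lay under the lower quartile on all 10 arrays. Krt25, Krt27 and Krtap8-1 did not hold the core in the 250 bases. The core of AP-1, TGACTCA or its reverse complement, was in 5 of 37 hair genes (13.5%), against 4.43% of all promoters. Such a match describes letters and is not a binding site.

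The values are log2 values, and each gene stands for 1 probe set, so levels are compared between samples and not between genes. The arrays had medians between 6.89 and 7.02 and lower quartiles between 5.05 and 5.26. Of the 66 genes, 28 exceeded the median of at least 1 array and 38 did not on any. In 20 genes, 16 of them keratin-associated, all 10 arrays lay under the lower quartile. All 7 basal and 4 of 5 luminal genes, but 12 of 43 hair genes, were above the median somewhere. Marker genes of other cell types moved with the groups. The 10 leukocyte markers had median values of 11.55 and 11.04 (CSC), 13.54 and 13.15 (TEC), 7.03 to 8.12 (CAF) and 5.40 to 6.07 (COF). The 10 fibroblast markers had median values of 8.33 and 8.40 (CSC), 8.80 and 11.41 (TEC), 13.12 to 13.15 (CAF) and 13.05 to 13.15 (COF). Leukocyte genes were thus highest in TEC and fibroblast genes in both fibroblast groups. The 10 epithelial markers that are no keratins had median values of 12.01 and 11.97 (CSC), 9.11 and 9.48 (TEC), 6.33 to 6.82 (CAF) and 5.70 to 6.01 (COF). TEC replicate 2 thus stood apart from TEC replicate 1 in its fibroblast markers, and for some genes that rest on it the difference without it is also given.

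**Figure D1:**
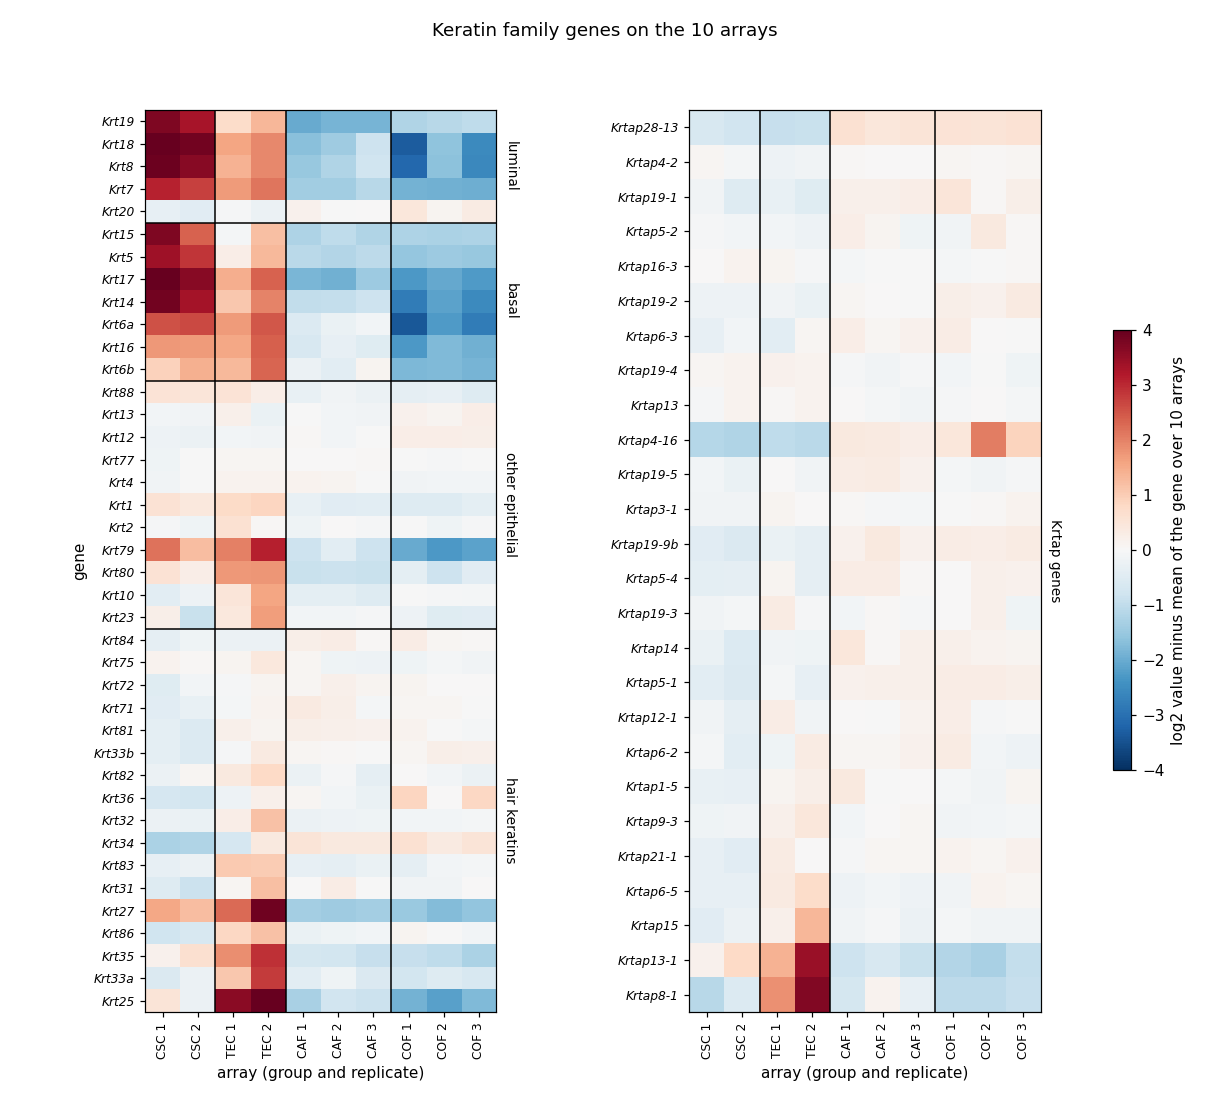
Log2 value of each of the 66 genes on each of the 10 arrays, minus the mean of that gene over the arrays, with genes in rows by class and arrays in columns by group. Colours end at 4 above and below the mean. Luminal and basal keratins other than Krt20, Krt16 and Krt6b are reddest on the 2 CSC arrays, hair genes such as Krt25, Krt27 and Krtap8-1 on the 2 TEC arrays, and most keratin-associated genes hardly vary.

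CSC were first set against TEC, the other tumour cell population. The simple and basal keratins of mammary epithelium were higher in CSC, by 4.15- to 5.64-fold for 7 of the 8 that passed, and keratins of the hair follicle were higher in TEC, by up to 17.2-fold for Krt25. The 2 directions were divided by class. The 8 genes higher in CSC were 4 luminal and 4 basal keratins, and the 25 lower genes were 21 hair and 4 other epithelial genes (limma, adjusted p under 0.05). All genes of the array gave 26.6% higher and 20.1% lower in the same test. The share of members called in either direction, 50%, was near the 46.7% of all genes, and 21 of the called members had a log2 difference of 1 or more, against 19.2% of all genes. The median difference was 2.12 over the luminal, 2.05 over the basal, -0.31 over the other epithelial and -0.33 over the hair genes, where the median over all genes was below 0.001.

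The luminal pair Krt8 and Krt18 differed in step. Krt8, the type II chain of simple epithelium, had log2 values of 14.23 and 13.96 on the CSC arrays, 11.71 and 12.23 in TEC, 8.81, 9.11 and 9.52 in CAF, and 7.19, 8.68 and 7.73 in COF. Krt18, its type I partner, had 13.79 and 13.59 in CSC, 11.31 and 11.65 in TEC, 8.06, 8.32 and 8.92 in CAF, and 6.39, 8.12 and 7.19 in COF. Both genes had the same order of populations, and groups overlapped only for Krt18, where COF replicate 2 lay above the lowest CAF array. Krt8 was 4.35-fold higher in CSC than in TEC (log2 difference 2.12 ± 0.43 SE, adjusted p = 0.00306) and Krt18 4.64-fold (2.21 ± 0.47, adjusted p = 0.00426). Krt19, the luminal keratin without a tail domain, had 12.46 and 12.03 in CSC, 9.48 and 10.08 in TEC, 6.72, 6.87 and 6.87 in CAF, and 7.53, 7.63 and 7.72 in COF. It was 5.52-fold higher in CSC (2.46 ± 0.20, adjusted p = 2.70e-05). Krt7, a type II keratin of glandular ducts, had 10.18 and 9.85 in CSC against 8.83 and 9.25 in TEC, and was 1.97-fold higher (0.98 ± 0.17, adjusted p = 0.00147). Krt20, a keratin of gut epithelium, lay under the lower quartile on 9 of 10 arrays and did not pass (-0.26 ± 0.14, adjusted p = 0.151).

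Of the 7 basal keratins, Krt5, Krt14, Krt15 and Krt17 were higher in CSC, and Krt6a, Krt6b and Krt16 did not pass. Krt5, the type II chain of basal cells, had 11.10 and 10.56 in CSC, 7.97 and 9.0 in TEC, 6.62, 6.55 and 6.67 in CAF, and 6.15, 6.25 and 6.17 in COF. Krt14, its type I partner, had 12.14 and 11.60 in CSC, 9.36 and 10.27 in TEC, 7.28, 7.31 and 7.46 in CAF, and 5.48, 6.12 and 5.72 in COF. Neither gene overlapped between any of the 4 populations. The differences between CSC and TEC were 2.35 ± 0.29 for Krt5 (adjusted p = 2.07e-04) and 2.05 ± 0.31 for Krt14 (adjusted p = 5.87e-04). Krt15, a keratin of basal and follicle stem cells, had 10.50 and 9.13 in CSC against 6.67 and 7.97 in TEC (2.50 ± 0.45, adjusted p = 0.00180), and in a fit on the 4 CSC and TEC arrays alone its adjusted p was 0.0533. Krt17, which is also found in hair follicles and basal-like tumours, had 9.92 and 9.20 in CSC against 7.01 and 7.92 in TEC (2.09 ± 0.32, adjusted p = 6.44e-04).

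Krt6a had 10.78 and 10.87 in CSC against 9.92 and 10.72 in TEC (0.50 ± 0.36, 95% interval -0.30 to 1.31, adjusted p = 0.281). Krt6b had 7.92 and 8.41 in CSC against 8.29 and 9.31 in TEC (-0.64 ± 0.31, interval -1.33 to 0.06, adjusted p = 0.121). Krt16, the type I partner of the Krt6 chains, had 9.14 and 9.10 in CSC against 8.96 and 9.78 in TEC (-0.25 ± 0.26, interval -0.83 to 0.34, adjusted p = 0.470). The arrays of CSC and TEC overlapped for Krt6b and Krt16. Krt6a and Krt6b, and Krt14, Krt16 and Krt17, are close paralogs whose probes can hybridise to each other's transcripts. For Krt6a the other probe sets, tested over all probe sets with 1 gene symbol, gave 0.55 and 0.61, with adjusted p of 0.0430 and 0.0198. Without TEC replicate 1, Krt6b and Krt16 passed as lower in CSC (adjusted p = 0.00515 and 0.0345).

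**Figure D2:**
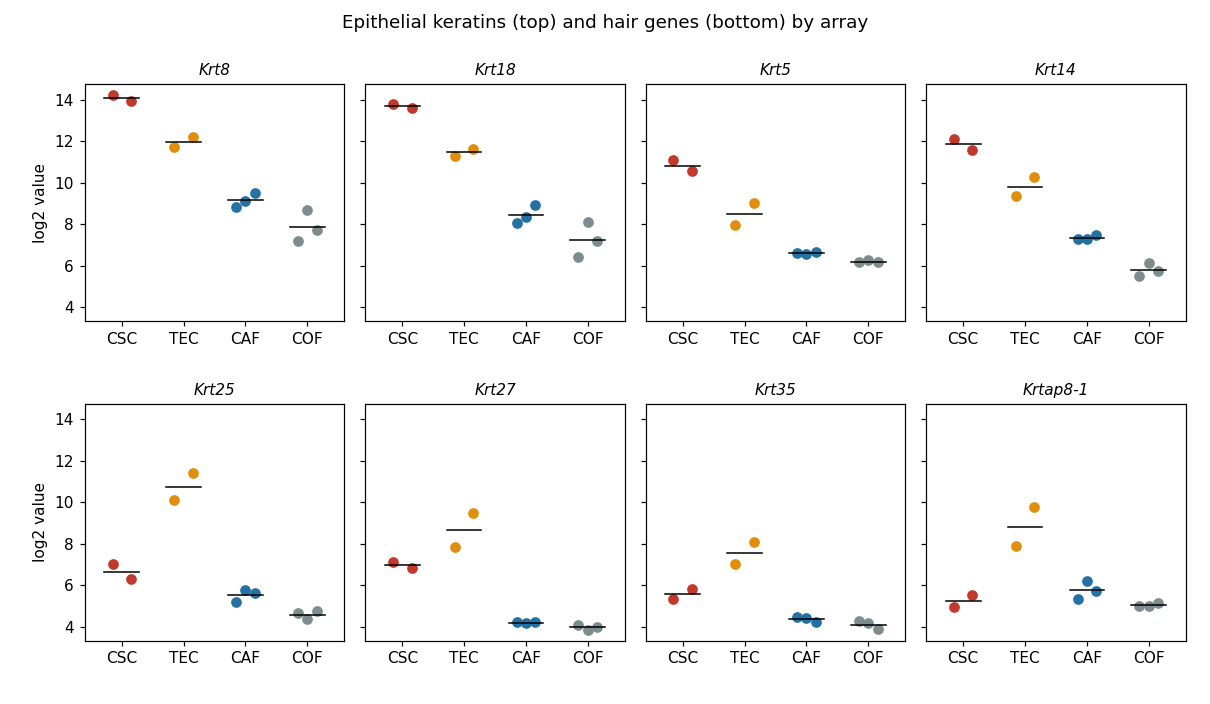
Log2 value on each array (points) and group mean (line) for Krt8, Krt18, Krt5 and Krt14 in the upper row and Krt25, Krt27, Krt35 and Krtap8-1 in the lower row, with the 4 populations along each axis. The upper genes step down from CSC to COF, and the lower genes are highest on both TEC arrays, where TEC replicate 2 (right point) exceeds replicate 1.

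Among hair genes the greatest difference was that of an inner root sheath keratin. Krt25, a type I inner root sheath keratin, had log2 values of 7.02 and 6.29 on the CSC arrays, 10.12 and 11.40 in TEC, 5.21, 5.75 and 5.64 in CAF, and 4.64, 4.36 and 4.74 in COF. Both TEC arrays lay above all others, and CSC lay above the fibroblasts. CSC were lower by 4.10 ± 0.39 on the log2 scale (adjusted p = 5.36e-05), and leaving out any array gave -4.75 to -3.46. Krt27, its neighbour on chromosome 11 and of the same layer, had 7.11 and 6.81 in CSC, 7.84 and 9.47 in TEC, 4.21, 4.15 and 4.22 in CAF, and 4.08, 3.84 and 3.99 in COF. Its difference was -1.69 ± 0.40 (adjusted p = 0.00755), and -0.88 without TEC replicate 2. In the fit on the 4 arrays alone Krt27 had an adjusted p of 0.0978, and without CSC replicate 2 of 0.0510. Both genes were also higher in CSC than in CAF, although all CAF values of Krt27 lay under the lower quartile of the array. The size of the Krt27 difference thus rests on a dim signal in CAF. The differences were 1.12 ± 0.36 for Krt25 (adjusted p = 0.0208) and 2.77 ± 0.37 for Krt27 (adjusted p = 1.55e-04). For Krt25 this adjusted p was 0.165 without CSC replicate 1 and 0.0679 without CAF replicate 1.

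The type II chains that pair with them in the follicle were not called higher in TEC than in CAF. Krt71 had 5.77 and 5.90 in CSC, 6.15 and 6.36 in TEC, 6.57, 6.46 and 6.13 in CAF, and 6.29, 6.28 and 6.18 in COF. TEC overlapped with both fibroblast groups, and the difference between TEC and CAF was -0.13 ± 0.14 (interval -0.44 to 0.18, adjusted p = 0.424). Krt72 had 5.17 and 5.56 in CSC and 5.63 and 5.76 in TEC, with 5.68 to 5.86 in the fibroblasts, and did not pass between TEC and CAF either (-0.09 ± 0.12, interval -0.37 to 0.18, adjusted p = 0.523). All 10 arrays lay under the array median for both. Between CSC and TEC, Krt71 was lower in CSC (-0.42 ± 0.15, adjusted p = 0.0482). Krt72 did not pass there (-0.33 ± 0.13, adjusted p = 0.0692), though both its CSC arrays lay under both TEC arrays. Krt73 and Krt74, the other type II chains of this layer, were not analysed here.

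**Figure D3:**
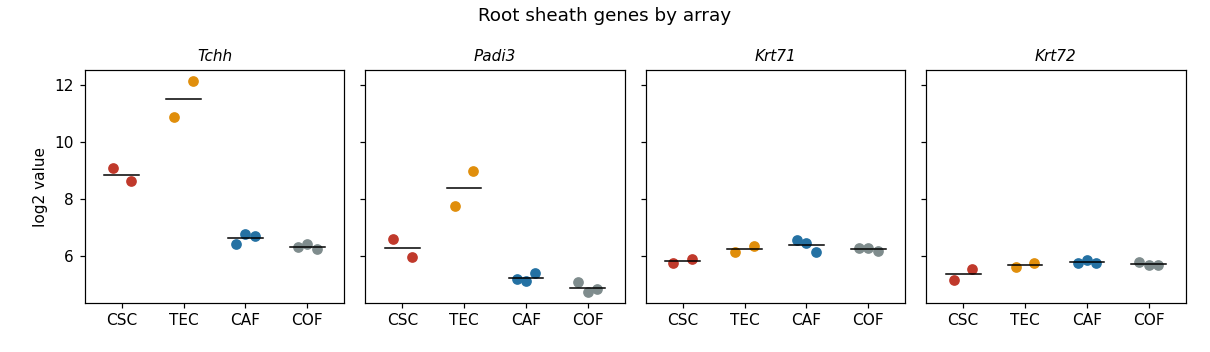
Log2 value on each array (points) and group mean (line) of the root sheath genes Tchh and Padi3 and of the type II keratins Krt71 and Krt72 in the 4 populations. Tchh and Padi3 are highest on both TEC arrays, and Krt71 and Krt72 lie between 5.17 and 6.57 throughout.

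Genes of the hair shaft were higher in TEC as well. Krt35, an early type I keratin of the shaft, had 5.33 and 5.81 in CSC, 7.02 and 8.09 in TEC, 4.46, 4.42 and 4.24 in CAF, and 4.26, 4.15 and 3.89 in COF (CSC minus TEC -1.99 ± 0.31, adjusted p = 7.09e-04). Krt33a, a type I keratin of the cortex, had 4.54 and 4.90 in CSC, 6.20 and 7.91 in TEC, 4.70, 4.95 and 4.56 in CAF, and 4.39, 4.62 and 4.47 in COF. Its 2 TEC arrays were the only ones apart from the rest. The difference was -2.33 ± 0.43 (adjusted p = 0.00204), and -1.48 without TEC replicate 2. In the fit on the 4 arrays alone its adjusted p was 0.0533. Among type II shaft keratins, Krt83 had 6.94 and 7.05 in CSC against 8.32 and 8.30 in TEC (-1.31 ± 0.12, adjusted p = 3.77e-05). Krt86 had 3.88 and 4.05 in CSC against 5.52 and 5.85 in TEC (-1.72 ± 0.14, adjusted p = 2.24e-05). Of the 13 shaft and companion layer keratins, 10 were lower in CSC and none was higher (8 had their highest mean in TEC), and of the 4 inner root sheath keratins, 3 were lower, Krt71 among them (-0.42 ± 0.15, adjusted p = 0.0482), which passed in 3 of the 10 fits that left out an array.

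Of the 26 keratin-associated proteins, 8 were lower in CSC and none was higher, and 3 of the 8 differed by at least 1. The share called, 30.8%, was below the 46.7% of all genes, and 20.1% of all genes were lower. It was 76.9% for the 13 shaft and companion layer keratins and 75% for the 4 inner root sheath keratins. Krtap8-1, a glycine- and tyrosine-rich matrix protein of the shaft, had 4.94 and 5.51 in CSC, 7.89 and 9.76 in TEC, 5.34, 6.20 and 5.71 in CAF, and 5.0, 5.0 and 5.12 in COF. CSC were lower by 3.60 ± 0.51 on the log2 scale (adjusted p = 4.46e-04), and leaving out any array gave -4.54 to -2.66. Krtap13-1 had 5.48 and 6.09 in CSC, 6.69 and 8.76 in TEC, 4.47, 4.66 and 4.41 in CAF, and 4.13, 4.01 and 4.34 in COF. Its difference of -1.94 ± 0.52 (adjusted p = 0.0139) was -0.90 without TEC replicate 2 and -2.97 without TEC replicate 1. Its adjusted p was 0.0805 without CSC replicate 1 and 0.125 in the fit on the 4 arrays alone. The third was Krtap15, which lay under the lower quartile on all 10 arrays. Of the 21 hair genes lower in CSC, 12 had means under the array median in both groups and 6 of these under the lower quartile, so that the size of those differences rests on dim signals.

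**Figure D4:**
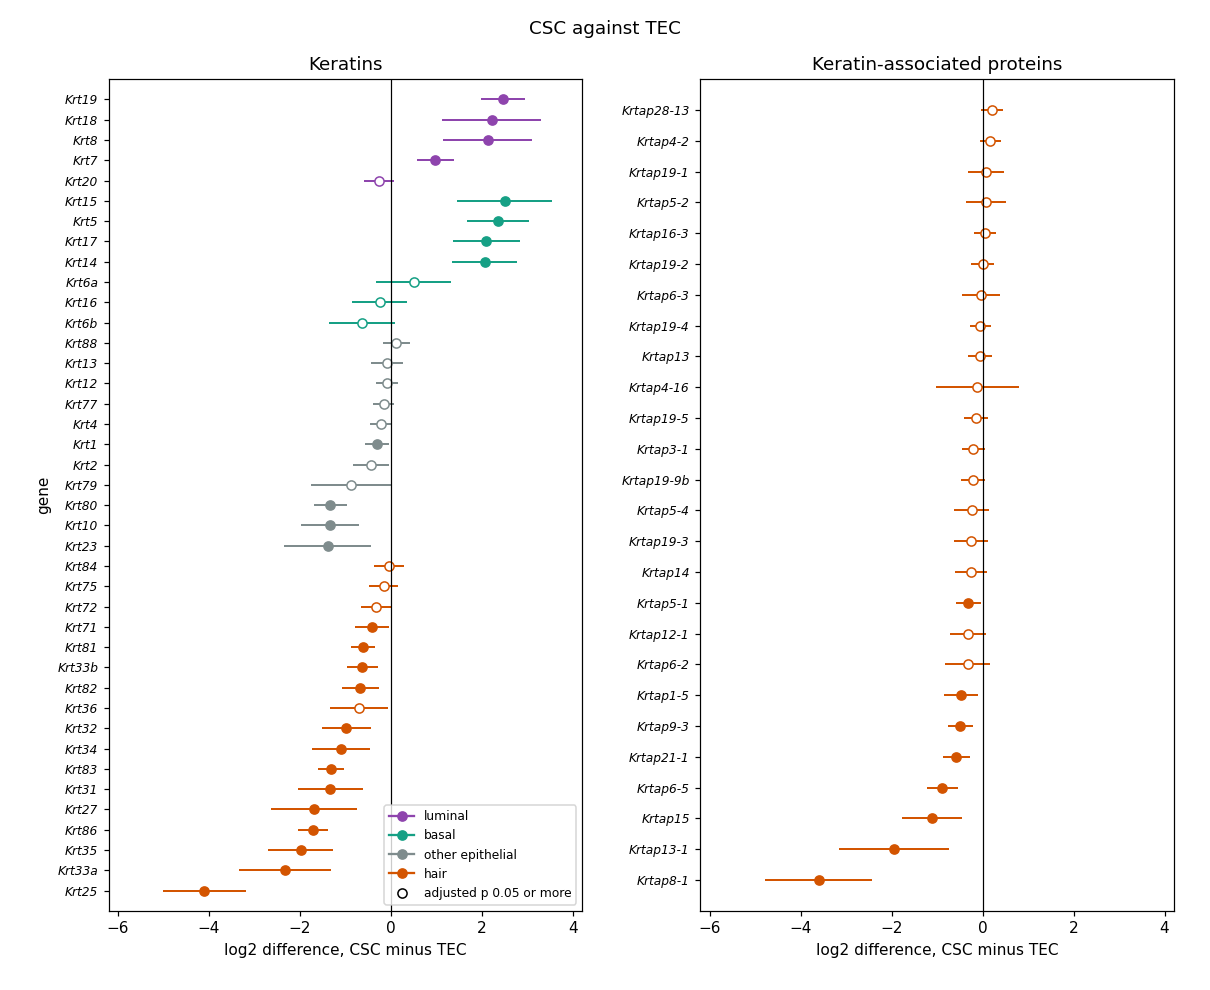
Log2 difference between CSC and TEC for each keratin (left) and keratin-associated gene (right), with its 95% confidence interval from limma (n = 2 and 2). Filled points passed at an adjusted p under 0.05. Luminal and basal keratins lie to the right of 0 except Krt20, Krt16 and Krt6b, and every filled hair gene lies to the left.

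Other genes of the hair follicle came from a list of 18, of which 15 were measured. In CSC 5 of the 15 were lower than in TEC and 0 higher, and 10 did not pass, so that the share called, 33.3%, was below the 46.7% of all genes, and 20.1% of all genes were lower. Trichohyalin, Tchh, the matrix protein of inner root sheath cells, had 9.09 and 8.62 in CSC, 10.87 and 12.14 in TEC, 6.43, 6.79 and 6.69 in CAF, and 6.33, 6.43 and 6.24 in COF. It was lower in CSC than in TEC by 2.65 ± 0.35 on the log2 scale (adjusted p = 2.74e-04). Padi3, which converts arginines of trichohyalin to citrulline, had 6.61 and 5.95 in CSC against 7.77 and 8.99 in TEC (-2.10 ± 0.35, adjusted p = 0.00117). Hoxc13, a transcription factor of hair shaft genes, had 4.67 and 4.58 in CSC against 4.90 and 5.44 in TEC (-0.54 ± 0.19, adjusted p = 0.0391). It passed in 2 of 10 fits that left out an array, and was -0.27 without TEC replicate 2 (adjusted p = 0.218). Lef1 lay between 3.11 and 3.47 on all 10 arrays, under the lower quartile of each. S100a3, a calcium-binding protein of hair cuticle, had 8.80 and 8.19 in CSC against 8.28 and 9.68 in TEC (-0.49 ± 0.39, adjusted p = 0.343), with 4.68 to 5.60 in the fibroblasts, and its adjusted p was 0.00670 without TEC replicate 1.

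Of the 11 other epithelial keratins, 4 were lower in CSC and 7 did not pass, so that the share called, 36.4%, was below the 46.7% of all genes. Krt80, an early differentiation keratin, had 7.76 and 7.46 in CSC, 8.92 and 8.96 in TEC, 6.29 to 6.33 in CAF and 6.37 to 6.80 in COF (CSC minus TEC -1.33 ± 0.15, adjusted p = 1.42e-04). Krt10 had 7.63 and 7.84 in CSC against 8.54 and 9.62 in TEC (-1.34 ± 0.28, adjusted p = 0.00341), and -0.80 without TEC replicate 2, and its adjusted p was 0.0711 in the fit on the 4 arrays alone. Its type II partner Krt1 had 5.23 and 5.07 in CSC against 5.42 and 5.50 in TEC (-0.31 ± 0.11, adjusted p = 0.0403), and passed in 2 of 10 fits that left out an array. Krt79, a keratin of the follicle opening and sebaceous duct in mouse skin, had 9.67 and 8.73 in CSC, 9.53 and 10.63 in TEC, 6.67 to 7.10 in CAF and 5.22 to 5.49 in COF. Its CSC and TEC arrays overlapped (-0.88 ± 0.37, adjusted p = 0.0826). The difference was -0.33 without TEC replicate 2 and -1.43 without TEC replicate 1, and Krt79 passed without TEC replicate 1 (adjusted p = 0.00948) and without CSC replicate 1 (adjusted p = 0.0252). Of 15 measured cornified envelope genes, 1 was higher and 3 lower in CSC than in TEC, a share of 26.7% against 46.7% of all genes, the lower ones including the envelope protein Sprr1a (-1.84 ± 0.35, adjusted p = 0.00240).

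The partners of keratins at the cell surface moved with the luminal and basal keratins. Of 17 measured plakin, desmosome and hemidesmosome genes, 13 were higher in CSC, 1 was lower and 3 did not pass, with a median of 1.20. Of all genes, 26.6% were higher and 20.1% lower in CSC, the shares to set beside each count of this paragraph. Jup, plakoglobin of the desmosome plaque, was 1.20 ± 0.16 higher (adjusted p = 3.18e-04), and Itga6, the integrin subunit of hemidesmosomes, 2.81 ± 0.26 (adjusted p = 4.60e-05). Dsp, desmoplakin, which ties keratin filaments to desmosomes, had 11.36 and 10.92 in CSC against 9.89 and 11.08 in TEC and did not pass (0.65 ± 0.52, adjusted p = 0.337), with 0.06 without TEC replicate 1 and 1.24 without TEC replicate 2. Trp63, the transcription factor of basal cells, averaged 9.91 in CSC and 7.09 in TEC (2.82 ± 0.27, adjusted p = 5.29e-05). Of 10 basal mammary markers without keratins, which include Trp63 and Itga6, 6 were higher in CSC, 1 was lower and 3 did not pass. The lower one was Dsc3, with 4.72 and 4.73 in CSC against 5.0 and 5.20 in TEC. Dsc3, Itga6, Itgb4 and Col17a1 are also among the plakin, desmosome and hemidesmosome genes, so both counts share them. Acta2, another of the basal markers, had 10.34 and 9.26 in CSC against 10.28 and 10.83 in TEC. Its CSC and TEC arrays overlapped, and it did not pass. Of 8 measured luminal mammary markers without keratins, 3 were higher in CSC and 5 did not pass. Vim, vimentin, the intermediate filament of mesenchymal cells and leukocytes, had 12.52 and 12.48 in CSC against 13.70 and 13.99 in TEC (-1.34 ± 0.11, adjusted p = 2.61e-05). Over the same contrast the 10 epithelial markers without keratins were all higher in CSC, with a median of 2.29, and 9 of 10 leukocyte markers were lower, with a median of -2.09. Of 8 measured markers of skin keratinocytes and hair follicle, which include Tchh, Padi3 and Hoxc13, 5 were lower in CSC and 0 higher. Their summed level on the log2 scale was 9.72 and 9.33 in CSC, 11.18 and 12.37 in TEC, 8.25 to 8.40 in CAF and 8.22 to 8.24 in COF. Most of the TEC sum was Tchh, which alone had 10.87 and 12.14. The medians of the 8 markers were 5.11 and 5.04 (CSC), 5.31 and 5.38 (TEC), 5.07 to 5.18 (CAF) and 5.05 to 5.14 (COF). Among them the keratinocyte markers Ivl, Lor and Flg lay between 2.56 and 5.59 on all 10 arrays. Flg had 2.61 on both CSC arrays against 3.35 and 3.68 in TEC and passed as lower in CSC (-0.91, adjusted p = 4.06e-04). The size of that difference rests on dim signals. The part of these cell types in the keratin differences was not tested.

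CSC were also set against CAF, the fibroblasts from tumours of the same genotype, a comparison that the study names for the contacts between both. All 7 basal keratins and 4 of 5 luminal keratins were higher in CSC, among them Krt19 (5.42 ± 0.18, adjusted p = 5.85e-08) and Krt18 (5.26 ± 0.43, adjusted p = 8.01e-06), and Krt20 was lower (-0.46 ± 0.13, adjusted p = 0.00942). Krt17 was higher as well (5.75 ± 0.29, adjusted p = 4.07e-07), with CAF values of 3.61 to 4.09 that lay under the lower quartile, a dim signal on which the size of the difference rests. In all 19 members were higher and 19 lower in CSC, where 33.1% of all genes were higher and 33.4% lower. The share called in either direction was 57.6%, against 66.5% of all genes, and 20 members differed by at least 1, as did 27.6% of all genes. Of the 19 that were lower, 18 were hair genes, 18 had means under the array median in both groups, and 3 differed by at least 1. The largest of these was Krt34, a type I shaft keratin, with 4.04 and 4.09 in CSC against 5.80, 5.67 and 5.69 in CAF (-1.66 ± 0.25, adjusted p = 3.10e-04). With a second quantile normalization the counts were 23 higher and 15 lower.

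The comparison of TEC with CAF used the same CAF arrays, so the 2 sets of differences are not independent. In TEC, 33 members were higher and 8 lower than in CAF, where 28.9% of all genes were higher and 38.6% lower. The share called was 62.1%, against 67.5% of all genes, and 26 members differed by at least 1, as did 28.9% of all genes. All 7 basal and 4 of 5 luminal keratins were again higher, by medians of 2.39 and 2.96 over the classes, which were 4.21 and 4.94 in the comparison of CSC with CAF. Of the hair genes, 15 were higher in TEC and 8 lower, and all 8 that were lower had means under the array median in both groups. Krt25 was 37.4-fold higher (5.23 ± 0.36, adjusted p = 3.20e-06), and Krtap8-1 differed by 3.08 ± 0.47 (adjusted p = 3.47e-04). Krt27 (4.46 ± 0.37, adjusted p = 9.78e-06), Krt35 (3.18 ± 0.28, adjusted p = 1.39e-05) and Krtap13-1 (3.21 ± 0.48, adjusted p = 3.18e-04) were also higher, but all their CAF values lay under the lower quartile of the array, so the size of these differences rests on a dim signal in CAF. Tchh differed by 4.87 ± 0.32 (adjusted p = 2.31e-06).

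Fibroblasts of the tumour, CAF, were compared with COF from control glands. Among the keratins higher in CAF were Krt6a, Krt6b, Krt14 and Krt16, while Krt5, Krt15 and Krt17 and 40 of 43 hair genes did not pass. Of the 66 members, 10 were higher and 3 lower in CAF, against 18.1% and 16.7% of all genes, so that the share called, 19.7%, was below the 34.8% of all genes. The 10 were 4 of 7 basal, 3 of 5 luminal, 1 of 11 other epithelial and 2 of 43 hair genes, and 7 of them differed by at least 1, where 8.31% of all genes passed and did so. Without CAF replicate 2, 7 members in all were called.

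Krt6a had log2 values of 7.69, 7.98 and 8.12 in CAF, against 4.83, 5.97 and 5.43 in COF. It was 5.74-fold higher (2.52 ± 0.29, adjusted p = 2.76e-04), although its other probe sets gave 0.58 and 0.70 (adjusted p = 0.0190 and 0.00510). Krt6b had 6.75, 6.57 and 7.11 in CAF against 5.19, 5.22 and 5.14 in COF (1.62 ± 0.25, adjusted p = 0.00129). Krt16 had 6.76, 7.08 and 6.91 in CAF against 5.11, 5.64 and 5.49 in COF (1.51 ± 0.21, adjusted p = 7.70e-04). For these 3 genes and for Krt14 (1.58 ± 0.25, adjusted p = 0.00144) the groups did not overlap and every one of the 20 other settings kept the call, among them an averaging of the closest pairs of arrays that was chosen after the data were seen. In that setting these 4 were the members called. The other probe sets of Krt14, tested over all probe sets with 1 gene symbol, gave 1.23 (adjusted p = 0.00252) and 0.11 (adjusted p = 0.486). The last had means of 4.15 in CAF and 4.04 in COF, under the lower quartiles, and did not pass. Krt79 had 6.67, 7.10 and 6.67 in CAF against 5.49, 5.22 and 5.37 in COF (1.45 ± 0.31, adjusted p = 0.00586), and its adjusted p with the averaged pairs was 0.0598.

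The luminal keratins did not move one way between the fibroblasts. Krt8 (1.28 ± 0.35, adjusted p = 0.0187) and Krt18 (1.20 ± 0.39, adjusted p = 0.0385) were higher in CAF, but COF replicate 2 overlapped with CAF for Krt18. Krt8 passed in 6 and Krt18 in 3 of the 10 fits that left out an array, and Krt18 fell to 0.78 without COF replicate 1. Krt7 was higher (0.63 ± 0.14, adjusted p = 0.00763), and Krt19 was lower in CAF, 6.72 to 6.87 against 7.53 to 7.72 in COF (-0.81 ± 0.17, adjusted p = 0.00517). With the averaged pairs the adjusted p was 0.0614 for Krt7 and 0.0603 for Krt19. Krt5 (0.42 ± 0.24, adjusted p = 0.216), Krt15 (0.10 ± 0.37, adjusted p = 0.886), Krt17 (0.46 ± 0.26, adjusted p = 0.220) and Krt10 (-0.39 ± 0.22, adjusted p = 0.232) did not pass. When the model was fitted to the 6 CAF and COF arrays only, Krt5 (adjusted p = 0.00219) and Krt17 (0.0285) passed as higher and Krt10 (0.00318) as lower. Krt25 was higher in CAF (0.95 ± 0.32, adjusted p = 0.0465) but passed in 4 of 10 fits that left out an array. Over the same contrast 7 of 10 epithelial markers without keratins and all 10 leukocyte markers were higher in CAF, with medians of 0.62 and 1.71. Of all genes, 18.1% were higher. The part of other cell types in these keratin values was not tested.

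**Figure D5:**
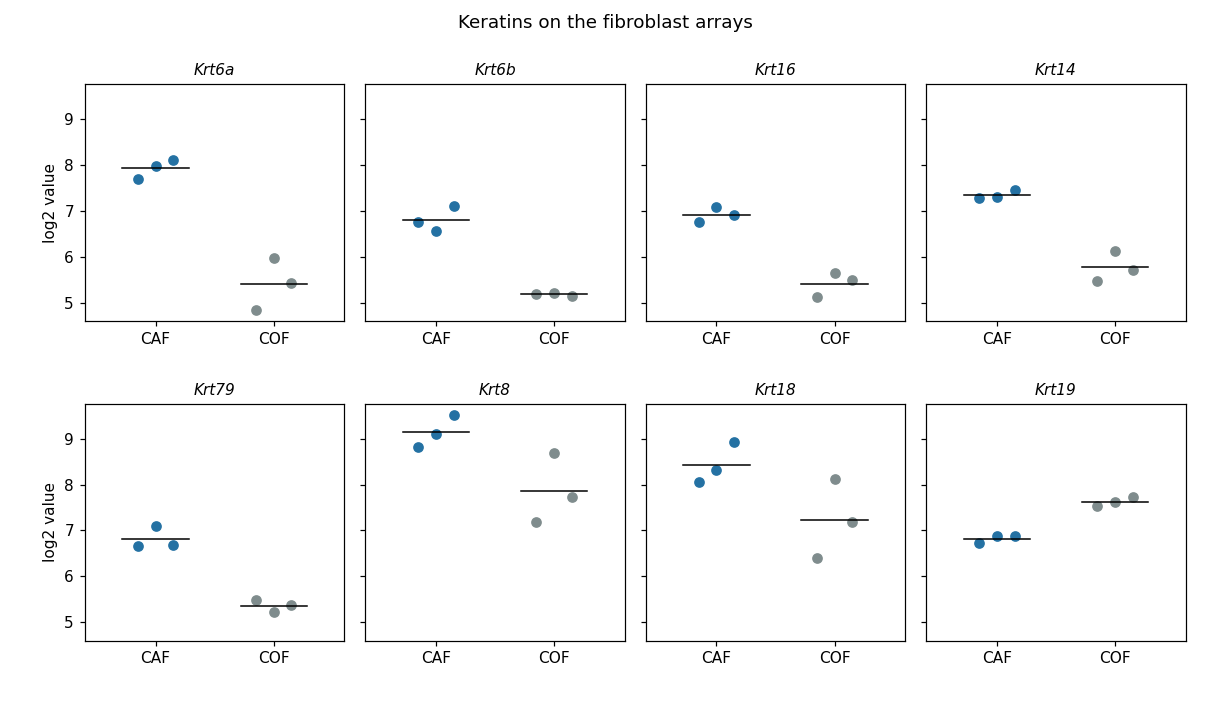
Log2 value on each fibroblast array (points) and group mean (line) for 8 keratins, CAF left and COF right. Krt6a, Krt6b, Krt16, Krt14 and Krt79 are higher on every CAF array, Krt8 and Krt18 spread widely in COF, and Krt19 is lower on every CAF array.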

How the data were processed

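Single-colour Affymetrix arrays were hybridised with RNA of sorted cells (100 ng of total RNA in each labelling, per the labels' protocols). The deposited log2 values were made by the authors with RMA, per the submitters' processing notes, which name no version. Whether the 10 arrays were normalized together is not given. Of 22690 probe sets, 20393 had 1 gene symbol, 691 several and 1606 none. A gene with several probe sets took the one of highest mean over the 10 arrays, which applied to 11 of the 66 members. RefSeq gave all 66 the same symbol.

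The 4 contrasts were tested with limma 3.58.1 (R 4.3.3; lmFit, eBayes), two-sided, with group as the only term over all arrays and Benjamini-Hochberg adjustment over 12394 genes. The threshold was an adjusted p of 0.05. Errors are moderated standard errors (SE), and intervals are 95% confidence intervals. The fit was also run on simulated data with known changes and independent normal errors. Such a run cannot show how well the threshold holds on these arrays. The number of arrays limits the precision.

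Members, classes, lists and motifs were chosen with earlier results of these data known. Test values were planned for up to 8 called members of each class and up to 4 called genes of each other list per contrast, and for a fixed set. Outside that rule, and chosen after values were seen, are Krt16, Krt20, Krt27, Krt71, Krt72, Krt79, Krtap13-1, S100a3, Hoxc13 and Lef1 between CSC and TEC, Krt25 between CSC and CAF, and Krt71 and Krt72 between TEC and CAF. The 7 genes with CTTTGAA in the printed 30 bases also lie outside that rule between CSC and TEC. Their differences in that contrast were not followed in the other settings. Krt73 and Krt74 were not used here. Alternatives changed the arrays in the fit, the replicate block, the prior, the filter on dim genes, the probe sets, the normalization and the threshold, and left out each array in turn.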

Additional observations from a re-analysis of the deposited data

How the results depend on the processing

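The number of members called between CSC and TEC, 33, was 15 in a fit on the 2 groups alone, 18 without the dimmest 30% of genes and 21 with a log2 difference of at least 1, and 28 to 35 when 1 array was left out. Between CSC and CAF, 38 became 18 without the dim genes, 20 with the difference of at least 1 and 33 to 40 without 1 array. Between TEC and CAF, 41 became 20, 26 and 36 to 42 in the same settings. Between CAF and COF, 13 became 21 in the fit on the 2 groups alone, 7 with the difference of at least 1, 4 with the closest pairs of CAF and of COF arrays averaged (a setting chosen after seeing the data), and 7 (without CAF replicate 2) to 18 (without TEC replicate 1) without 1 array. The filter on dim genes leaves fewer members to test, and the fits on 2 groups use fewer arrays. Other settings moved these counts by less than 1.5 times. The replicate block gave 30 between CSC and TEC, 37 between CSC and CAF, 37 between TEC and CAF and 11 between CAF and COF. The deviations of same-numbered arrays from their group means correlated between -0.08 and 0.13, so the numbers were not taken to pair the arrays. Of 4210 values of named genes in other settings, 3956 stayed on the same side of the threshold, 225 no longer passed and 28 newly passed. In 30 values the sign differed, 29 of them of genes that did not pass in either setting. The other was Lce1a1 between CSC and CAF, -0.50 as first fitted and 0.071 without probe sets ending in _x_at or _s_at. The cause was not tested. With 2 arrays each of CSC and of TEC, a difference that did not pass is not shown to be absent. Of the 20 members under the lower quartile on all arrays, 6 passed between CSC and TEC, and the size of their differences rests on dim signals.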
